A study of Mus musculus with 8 samples.

Results

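The miR-23, miR-27 and miR-24 clusters are 2 stretches of the mouse genome that each carry a miR-23, a miR-27 and a miR-24 gene close together. Their mature products on the array are mmu-miR-23a, mmu-miR-23b, mmu-miR-27a, mmu-miR-27b and mmu-miR-24, written below without the prefix for mouse, which were taken as the non-control rows with these names. They are 5 of the 577 miRNAs on the array, of which 567 are from mouse and 10 from a mouse virus. They were measured in livers of 4 db/db mice and 4 db/+ mice of the C57BL/KsJ background, 1 array per animal. The db/db mice carry the db allele of the leptin receptor gene on both chromosomes, lack its signalling form in every tissue, and become obese and diabetic. The db/+ mice carry the db allele on a single chromosome and served as the non-diabetic control, so both groups hold at least 1 db allele and no wild-type animal was compared. Neither age nor sex of the animals is given in the sources used here. Whole frozen liver was extracted, so a lower signal can mean fewer cells of a type or less RNA per cell, and these cannot be told apart.

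A miRNA is a short RNA that guides a silencing complex to messenger RNAs, mostly by pairing of its seed, the bases 2 to 8 from its 5′ end. miRNAs with the same seed can bind many of the same messenger RNAs. The miRNAs of a cluster are cut from a shared primary transcript, but the level of each mature product also depends on its own processing and decay. In liver and fat, miR-27 is known for repressing genes of lipid metabolism and fat cell formation. From work in cancer and blood cell lines, miR-23 is known for repressing glutaminase and miR-24 for repressing genes of the cell cycle.

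The mature sequences are shown because the a and b forms of miR-27 share a seed and because miR-24 has a single mature sequence for both clusters. Capitals mark the seed.
miR-23a: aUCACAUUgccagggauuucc
miR-27a: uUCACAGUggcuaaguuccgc
miR-27b: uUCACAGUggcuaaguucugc
miR-24: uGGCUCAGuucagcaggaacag
These sequences are from RefSeq, assembly GRCm38.p6. miR-23b was not matched in that table. The miR-27a and miR-27b sequences are identical at 20 of 21 bases and differ by C19U, counted from 1 at the 5′ end with the miR-27a base first. No other mature miRNA in the RefSeq table has the miR-27 seed. The miR-24 seed is shared there by miR-5124b, miR-6369, miR-6410 and miR-6413.

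The array files place the clusters on mm9. The a cluster is on chromosome 8, where the longer probe of miR-23a maps to chr8:86732465-86732482 and that of miR-27a to chr8:86732630-86732646. The b cluster is on chromosome 13, with miR-23b at chr13:63401841-63401857, miR-27b at chr13:63402072-63402088 and miR-24 at chr13:63402563-63402580. The stretch from the first to the last probe, passenger strand probes included, covers 295 bases on chromosome 8 and 740 bases on chromosome 13. By RefSeq gene names, the a cluster lies in no annotated host gene and has the protein-coding neighbours Nanos3 and Zswim4. The b cluster lies within Aopep, an aminopeptidase gene, with Fbp1, which encodes the gluconeogenic enzyme fructose-1,6-bisphosphatase, on one side and Fancc on the other.

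The array lists miR-24 at chromosome 13 alone, but RefSeq holds its mature sequence at both loci. Both hairpins are shown, with the mature miR-24 in capitals, to make plain that 1 signal covers the products of both clusters.
Mir24-1: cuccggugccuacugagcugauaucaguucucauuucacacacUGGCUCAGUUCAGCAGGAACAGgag
Mir24-2: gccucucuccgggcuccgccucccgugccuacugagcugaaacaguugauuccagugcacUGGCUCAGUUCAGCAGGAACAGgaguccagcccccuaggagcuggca
The capitals are the same in both hairpins, while the loop and the opposite arm differ.

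The arrays differed widely in brightness within db/+. The factor that each array was divided by was 0.847, 1.06, 0.993 and 1.06 in db/db replicates 1 to 4, against 5.63, 0.564, 1.58 and 0.210 in db/+ replicates 1 to 4. The range was 1.26-fold among db/db arrays and 26.8-fold among db/+ arrays. Between 133 and 166 mouse miRNAs were detected on the db/db arrays and between 91 and 255 on the db/+ arrays. All 8 arrays were on 1 slide, with db/db in row 1 and db/+ in row 2, so that an effect of the row and an effect of the strain cannot be told apart. The liver-specific miR-122 was at a log2 scaled signal of 15.42 to 15.55 in db/db and 14.57 to 15.99 in db/+.

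All 5 members were detected on all 8 arrays, and none passed the test between strains. limma with Benjamini-Hochberg adjustment called 0 of the 5 at a threshold of 0.05, while it called 15.0% of the 127 tested miRNAs, 19 in all. The 12 that were higher in db/db are 9.45% of those tested and the 7 that were lower are 5.51%, and the members gave 0 in both directions. With only 5 members, 0 cannot be told apart from these shares. At an unadjusted p under 0.05, 1 of the 5 passed, miR-23b, and 33 of the 127 did. SAM, the test named in the series text, also called 0 of the 5, while it called 18 of the 127 (11 higher and 7 lower in db/db). Here too 5 members are too few to be told apart from the share over all. The members' log2 fold changes, db/db over db/+, ranged from -0.35 to 0.32 with a median of -0.02, and 2 of the 5 were above 0. Over all 127 the median was 0.15 and 84 were above 0. All 127 were detected on every db/db array but only 89 of them on every db/+ array, so these shares can lean toward higher values in db/db. Over those 89, which include the members, the median was 0.098, with 8 calls higher and 6 lower in db/db.

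**Figure D1:**
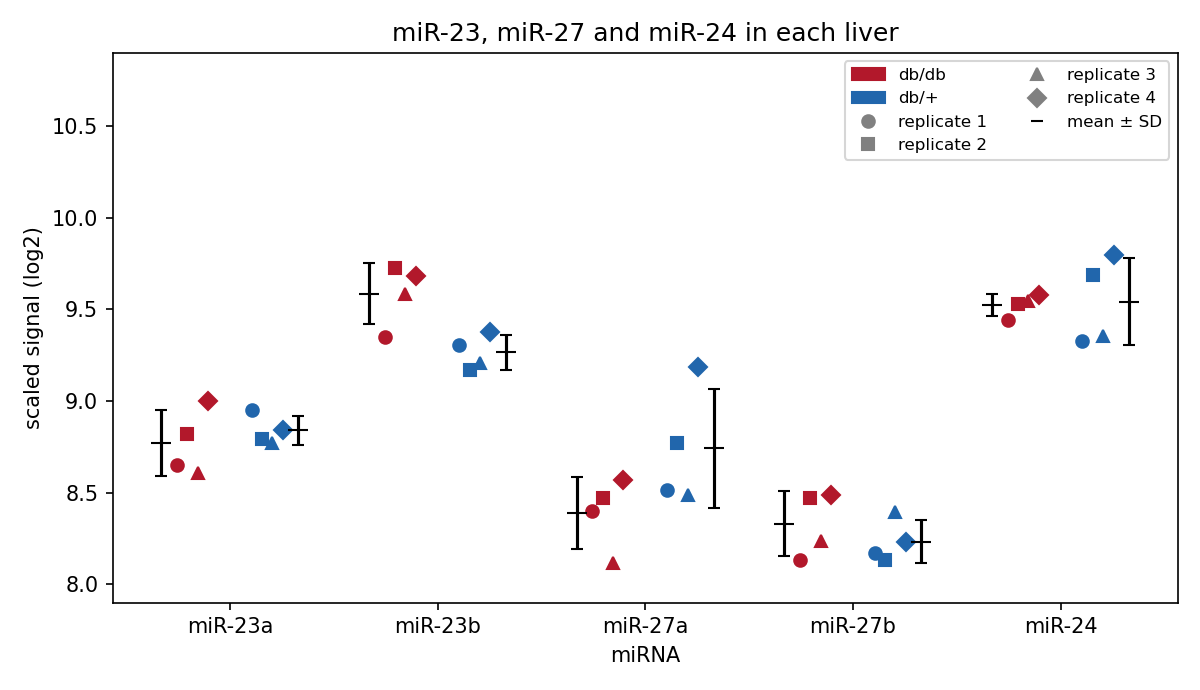
Log2 scaled signal (vertical axis) of each of the 5 miRNAs (horizontal axis) in 4 db/db livers (red, left of each pair) and 4 db/+ livers (blue, right). The marker shape gives the replicate number, which pairs no animals, and the black bars give mean ± SD. The strains overlap for every member, by a single pair of arrays for miR-23b.

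miR-23b, from the b cluster, had the highest fold change of the 5. Its log2 scaled signal was 9.35, 9.73, 9.58 and 9.69 in db/db livers, against 9.31, 9.17, 9.21 and 9.38 in db/+ livers. The strains overlapped by a single pair: the lowest db/db liver lay just under the highest db/+ liver. The means were 9.59 ± 0.17 in db/db and 9.27 ± 0.10 in db/+ (SD, n = 4 each). The log2 fold change was 0.32 ± 0.14 (SE), with a 95% interval of 0.0048 to 0.64, and limma's adjusted p was 0.182. It was above 0 under every alternative run, at 0.20 with scaling to the 75th percentile and with cyclic loess and 0.14 without db/+ replicates 2 and 4. It passed only when arrays were weighted by quality (0.38, limma adjusted p = 0.0380), a setting under which 42 of the 127 tested miRNAs passed. Over the other alternatives limma's adjusted p lay between 0.119 and 0.993.

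miR-23a, its relative in the a cluster, had closer means. Its log2 scaled signal was 8.65, 8.82, 8.61 and 9.00 in db/db livers, against 8.95, 8.79, 8.77 and 8.84 in db/+ livers. The highest and the lowest values were both from db/db. The means were 8.77 ± 0.18 in db/db and 8.84 ± 0.08 in db/+ (SD, n = 4 each), a log2 fold change of -0.07 ± 0.14 (SE; 95% interval -0.39 to 0.25; limma adjusted p = 0.792). The sign of this value turned under 3 other processings.

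miR-27a, from the a cluster, had the lowest fold change of the 5. Its log2 scaled signal was 8.40, 8.47, 8.11 and 8.57 in db/db livers, against 8.52, 8.77, 8.49 and 9.19 in db/+ livers. The strains overlapped, since db/db replicate 4 lay above db/+ replicates 1 and 3. The means were 8.39 ± 0.20 in db/db and 8.74 ± 0.32 in db/+ (SD, n = 4 each). The log2 fold change was -0.35 ± 0.19 (SE; 95% interval -0.78 to 0.07), and limma's adjusted p of 0.265 missed the threshold. The 2 highest values, on db/+ replicates 4 and 2, came from the 2 dimmest of all 8 arrays. The value kept its sign under every alternative run, between -0.49 and -0.16.

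miR-27b, from the b cluster, was at 8.13, 8.47, 8.24 and 8.49 in db/db livers, against 8.17, 8.13, 8.40 and 8.23 in db/+ livers (log2 scaled signal). Values of the strains were mixed. The lowest values of both strains are equal because miR-27b was itself the miRNA at the median used for scaling on those 2 arrays. The means were 8.33 ± 0.18 in db/db and 8.23 ± 0.12 in db/+ (SD, n = 4 each), a log2 fold change of 0.10 ± 0.15 (SE; 95% interval -0.23 to 0.42; limma adjusted p = 0.715). This value fell below 0 with scaling to the 75th percentile and with quantile normalization.

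miR-24, which both clusters produce, was at 9.44, 9.53, 9.55 and 9.58 in db/db livers, against 9.33, 9.69, 9.36 and 9.80 in db/+ livers (log2 scaled signal). The db/db values lay inside the range of the db/+ values, whose 2 highest were again on the dim db/+ replicates 4 and 2. The means were 9.52 ± 0.06 in db/db and 9.54 ± 0.24 in db/+ (SD, n = 4 each). The log2 fold change was -0.02 ± 0.15 (SE; 95% interval -0.36 to 0.32; limma adjusted p = 0.950), and its sign turned under 4 other processings. Because the mature sequence is shared, this value gives no separate account of the a and b clusters.

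**Figure D2:**
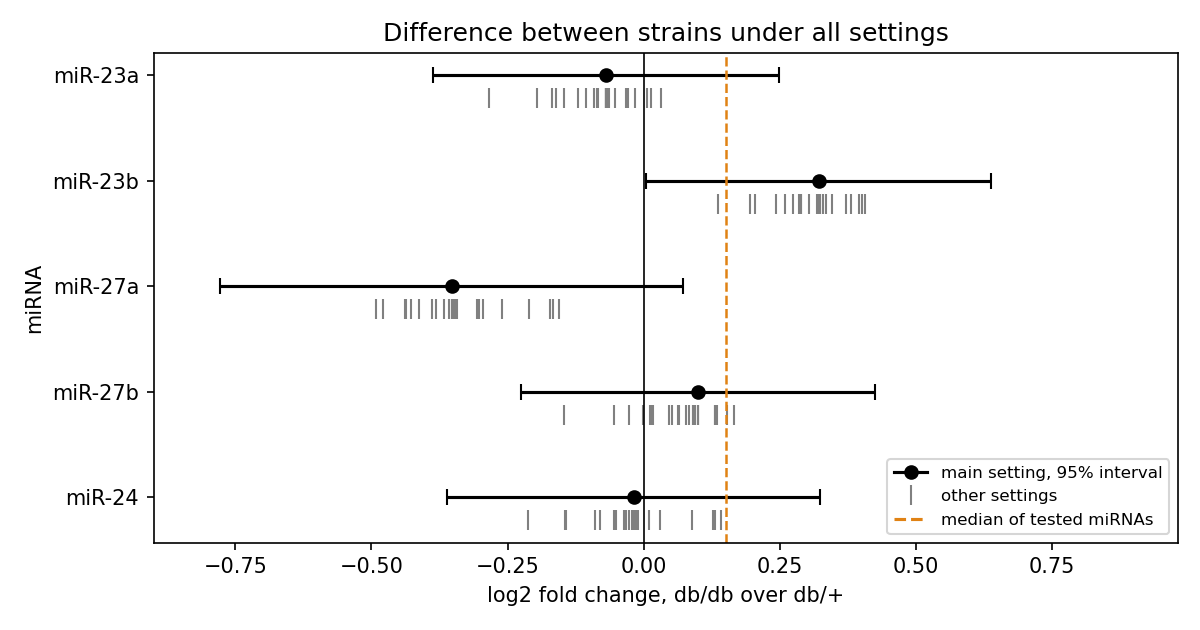
Log2 fold change, db/db over db/+ (horizontal axis), of each member (vertical axis), as a black point with its 95% interval, and under each alternative setting (grey ticks). The dashed line is the median of all 127 tested miRNAs, 0.15. The ticks of miR-23b lie above 0 and those of miR-27a below 0, while those of miR-23a, miR-24 and miR-27b lie on both sides of it.

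The a and b clusters were then compared by the ratio of their miR-23 and miR-27 forms within each array, from which the array's scaling factor cancels. The log2 ratio of the miR-23a signal to the miR-23b signal was -0.70, -0.91, -0.97 and -0.69 in db/db livers, against -0.36, -0.37, -0.43 and -0.54 in db/+ livers. With the main processing, every db/db liver was below every db/+ liver. Since levels of different probes are not on 1 scale, only the difference of this ratio between strains is of use, not its size. It averaged -0.82 ± 0.15 in db/db and -0.43 ± 0.08 in db/+ (SD, n = 4 each), a difference of -0.39, so that the ratio in db/db was 0.763 times that in db/+. The interval of shifts that the exact permutation test did not reject was -0.616 to -0.148 (97.14% coverage). The two-sided exact permutation p was 0.0286, the smallest that 4 against 4 arrays allow. It was 0.0571 after Benjamini-Hochberg adjustment over the 2 ratios, which missed the threshold. Even from that smallest p, the adjusted value could pass only if the miR-27 ratio reached it too. Before adjustment the p was 0.0857 with quantile normalization and with only the 17-base probe of each member, and the strains then overlapped.

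The log2 ratio of the miR-27a signal to the miR-27b signal was 0.27, 0.0020, -0.12 and 0.081 in db/db livers, against 0.34, 0.64, 0.092 and 0.96 in db/+ livers. The strains overlapped here, by the db/db replicate 1 and the db/+ replicate 3. The means were 0.057 ± 0.17 in db/db and 0.51 ± 0.37 in db/+ (SD, n = 4 each), a difference of -0.45, with an interval from the exact permutation test of -1.08 to 0.178 (97.14% coverage). The exact two-sided permutation p was 0.0571 before and after adjustment over the 2 ratios. The 2 highest ratios were on the 2 dimmest arrays, and without db/+ replicates 2 and 4 the difference was -0.161. The part of array brightness in this value was not tested. The ratio of miR-23a to miR-23b had its lowest db/+ value on the dimmest array, replicate 4, and without db/+ replicates 2 and 4 its difference was -0.42.

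**Figure D3:**
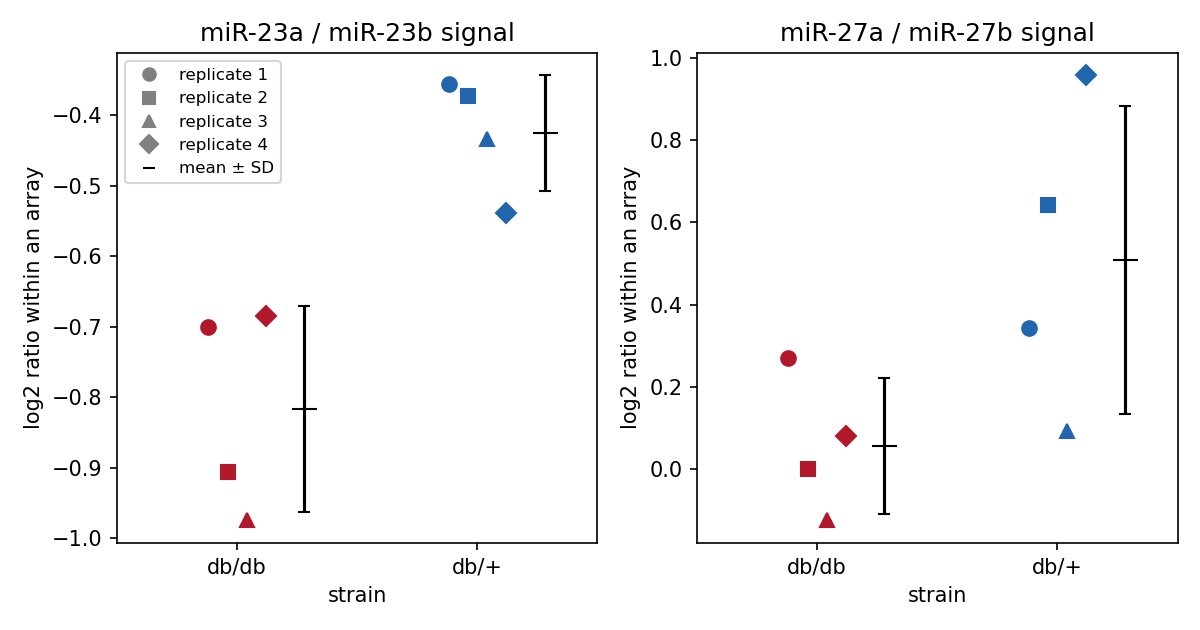
Log2 ratio of the a form to the b form within each array (vertical axis) for miR-23 (left panel) and miR-27 (right panel), in 4 db/db livers (red, left) and 4 db/+ livers (blue, right), with mean ± SD in black. For miR-23 the db/db values, -0.97 to -0.69, lie below the db/+ values, -0.54 to -0.36, and for miR-27 the strains overlap.

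**Figure D4:**
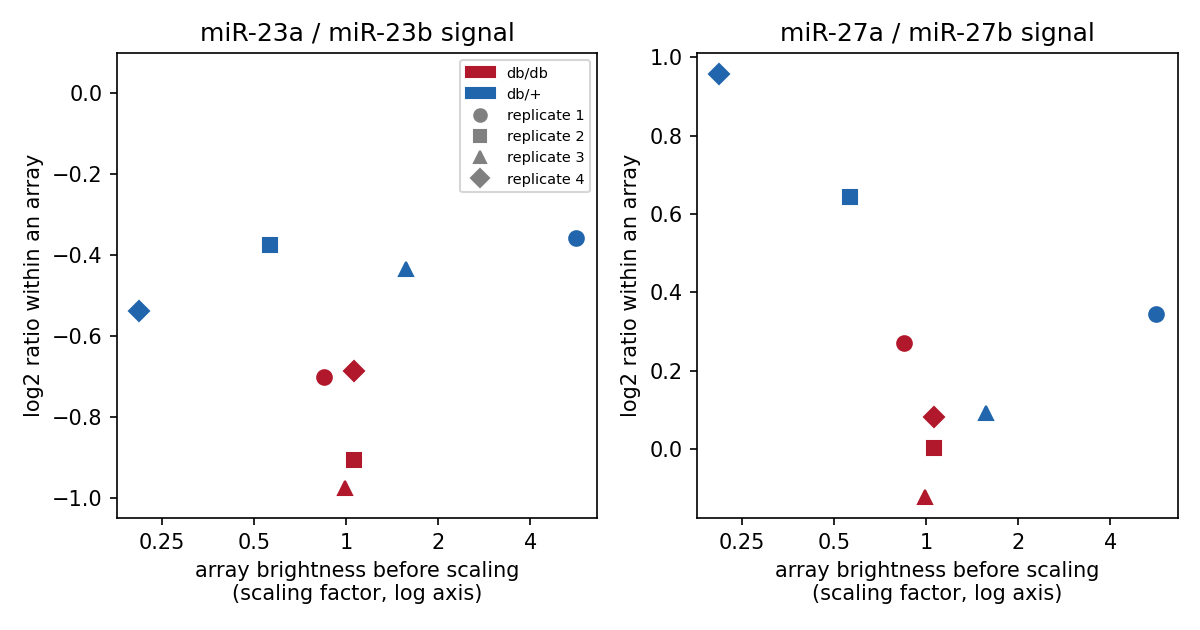
The same log2 ratios (vertical axis) against the scaling factor of each array (horizontal axis, log scale), with miR-23 on the left and miR-27 on the right, db/db in red and db/+ in blue. The db/+ arrays run from 0.210 to 5.63, and the 2 highest miR-27 ratios, 0.96 and 0.64, are on the 2 dimmest of them.

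Of the 10 pairs that can be formed from the 5 members, 4 had within-array ratios that did not overlap between strains. Among all 8001 pairs of tested miRNAs this held for 23.7%, so 4 of 10 is to be read against that share, and pairs that share a member are not independent. Besides the miR-23 forms, the log2 ratio of miR-23b to miR-27a was higher in db/db by 0.67 and that of miR-23b to miR-27b by 0.22. The log2 ratio of miR-27a to miR-24 differed by -0.33, lower in db/db. The other 6 pairs overlapped. Values of the single members overlapped between strains for all 5. They did not overlap for 22.8% of the tested miRNAs, a share from which 5 members are too few to be told apart.

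Each member was read by 2 probes of different length, with 10 spots each, and both probes were set side by side. The difference of mean log2 signal between strains, db/db minus db/+, was 0.32 with the longer and 0.34 with the shorter probe of miR-23b. It was -0.07 with both probes of miR-23a and -0.35 with both of miR-27a. For miR-24 it was -0.02 with both. For miR-27b it was 0.08 with the longer probe and 0.18 with the shorter, whose spots were not well above background on db/+ replicate 4, so that the second value rests on 3 measured db/+ arrays and a dim one. Probes of both lengths for miR-27a and miR-27b cover position 19, the base at which the 2 miRNAs differ. How much signal each form gives on the other's probe was not tested, and the same holds for miR-23a and miR-23b. The miR-23b sequence was not matched, so the positions its probes cover are not given.

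**Figure D5:**
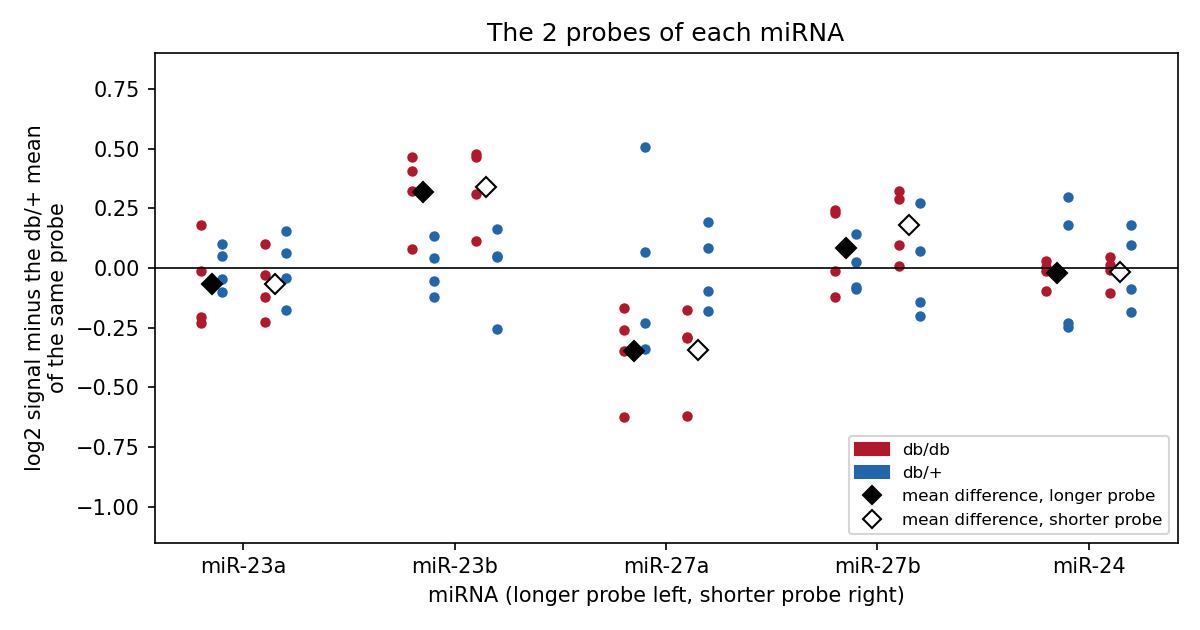
Log2 signal of each probe minus its own db/+ mean (vertical axis) for the longer (left) and shorter (right) probe of each miRNA (horizontal axis), with db/db arrays in red, db/+ arrays in blue, and the mean difference as a diamond. The diamonds of the 2 probes lie at 0.32 and 0.34 for miR-23b and both at -0.35 for miR-27a. For miR-27b they lie at 0.08 and 0.18, and its shorter probe was not well above background on db/+ replicate 4.

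The opposite, or passenger, strands of the hairpins could mark which locus a product came from. The array carries 4 of the 6 passenger strands sought, and none reached the detection needed for testing. miR-27a* and miR-27b* were detected on no array. Those of miR-24 differ between the loci, as shown here with the seed in capitals.
miR-24-1*: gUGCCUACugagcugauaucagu
miR-24-2*: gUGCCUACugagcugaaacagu
They share their first 16 bases. miR-24-1*, from the b cluster, was detected on db/db replicate 3 and on db/+ replicates 1 and 3. Its unscaled signal was 8.86, 9.15, 9.36 and 5.08 in db/db livers, against 55.7, 6.28, 18.4 and 0.80 in db/+ livers. After scaling these were 10.5, 8.59, 9.43 and 4.79 in db/db and 9.89, 11.1, 11.7 and 3.82 in db/+, and the order of the unscaled db/+ values was the order of brightness of those arrays. miR-24-2*, from the a cluster, was detected on db/+ replicate 1 alone, the brightest array, with an unscaled signal of 0.096, 1.95, 2.59 and 0.31 in db/db livers, against 33.4, 0.81, 10.7 and -1.78 in db/+ livers. The split of miR-24 between the clusters was therefore not measurable at this signal.

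How the members varied together over the 8 arrays is given as a description, since the values share arrays and scaling. Pearson's r was 0.14 between miR-23a and miR-23b and -0.12 between miR-27a and miR-27b. Within clusters it was 0.44 between miR-23a and miR-27a and 0.65 between miR-23b and miR-27b. Across clusters it was 0.40 between miR-23a and miR-27b and -0.31 between miR-23b and miR-27a. Without the brightest and the dimmest array, both of db/+, these 4 values were 0.64, 0.62, 0.69 and -0.40, in the same order of pairs. Between the a and b forms r was then 0.30 for miR-23 and 0.02 for miR-27. miR-24 had an r of 0.66 with miR-27a, which was 0.40 without those arrays, and of 0.02, 0.13 and -0.08 with miR-23a, miR-23b and miR-27b.

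Among the other 122 tested miRNAs, the 2 whose log2 signal ran most like each member were named. For miR-23b these were miR-30c (r = 0.94) and miR-676 (r = 0.85), which was at the floor on db/+ replicates 2 and 4 and was tested only through its detection in db/db. For miR-23a they were miR-146a (r = 0.72) and miR-10a (r = 0.60). For miR-27a they were miR-338-3p (r = 0.94) and the myeloid miR-223 (r = 0.90), and for miR-27b miR-221 (r = 0.77) and miR-30c (r = 0.73). Neither miR-146a nor miR-221 was detected on every array, so both were also tested only through their detection in db/db. For miR-24 they were miR-331-3p (r = 0.94) and miR-30d (r = 0.92). Like miR-24 and miR-27a, the miRNAs miR-331-3p, miR-30d, miR-338-3p and miR-223 had their 2 highest values on db/+ replicates 2 and 4. The part of array brightness and of the strain in these r was not tested. Without the brightest and the dimmest array, r was 0.99 for miR-30c with miR-23b and 0.76 for miR-223 with miR-27a. For the other pairs named it then lay between 0.60 (miR-10a with miR-23a) and 0.94 (miR-331-3p with miR-24). The dim db/+ replicate 2 remains in these values.

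Leukocyte miRNAs were among those lower in db/db. Of the 7 on the array 4 were tested and 2 fell in db/db, miR-142-3p (log2 fold change -1.10, limma adjusted p = 0.0164) and miR-223 (-0.74, adjusted p = 0.0434), where 5.51% of all tested miRNAs were called lower. The tested miR-342-3p (-0.54, limma adjusted p = 0.321) and miR-146a (-0.04, adjusted p = 0.909) did not pass. The summed scaled signal of the 7 was 321 to 420 in db/db livers and 514 to 761 in db/+ livers. These sums did not overlap, as was true of the values of 22.8% of single tested miRNAs. The sum is linear, so the brightest weigh most, and miR-223, already called, was the brightest of the 4 tested. Of the 7, 4 were not detected on every array, though each was detected on some. The part of leukocytes in the miR-27a values was not tested. None of the 3 liver, 3 endothelial, 4 stellate and smooth muscle or 1 erythroid miRNAs tested passed. Over all tested miRNAs 15.0% passed, and lists this short cannot be told apart from that share.

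Other miRNAs tied to lipid and cholesterol metabolism included some that passed. Of 11 on that list 6 were tested, 2 rose in db/db and 1 fell, against 9.45% called higher and 5.51% called lower over all tested miRNAs. miR-34a, a p53 target that represses Sirt1, was at 9.68 ± 0.49 in db/db and 7.14 ± 0.35 in db/+ (log2 scaled signal, SD, n = 4 each; log2 fold change 2.54, limma adjusted p = 1.7e-04). miR-378, which is encoded within Ppargc1b, rose by a log2 fold change of 1.09 (limma adjusted p = 0.00633), and the miRNA that fell was miR-223. The median over the 6 was 0.45. In 2 other families that are encoded as copies in several clusters, 0 of 3 miR-29 members (median -0.51) and 0 of 5 members of the miR-15 and miR-16 group (median 0.02) passed. Both are too few to be told apart from the 15.0% over all tested miRNAs.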

How the data were processed

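Livers of 4 db/db and 4 db/+ mice were each hybridised, 100 ng of total RNA per array, to Agilent 1-colour mouse miRNA arrays, per the labels' protocols. Per the file headers, the spot intensity came from Feature Extraction 9.5.3.1 (the series text has 9.3.5), with background subtracted and no scaling between arrays. The deposited table of the series held raw median intensity per spot on a linear scale (array medians 95.5 to 148), equal to the scanner files, per the file headers' median signal. The flags for detection, outliers and spots well above background are of another kind (0 or 1), per the file headers. A deposited score, called median normalized and log transformed in the series text, covers 139 miRNAs. Its logarithm has a base close to 20 when set against the scanner files, and the base is not given in the sources used here.

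Outlier spots (3.42% to 4.84% of 11540) were left out and no spot was saturated. Spots, then probes, were averaged on the linear scale, and arrays were scaled by their medians of the 89 miRNAs found on every array (relative to the geometric mean of these medians). Values were floored at 4.59 and log2 was taken. The 127 miRNAs that every array of at least 1 strain detected entered the test, which used limma 3.58.1 under R 4.3.3 (with the data.table package, version 1.17.8), strain as the only term, with Benjamini-Hochberg adjustment over all 127. Ratios were compared with exact permutation tests. Plots were drawn with matplotlib 3.10.9 in Python 3.11.15. The procedure was tested on simulated data with 1 spread for all miRNAs and both strains and no difference in brightness. It therefore does not show how the test performs at the unequal spread and brightness of these arrays. The number of arrays limits the precision.

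Replicates are separate animals. Replicate numbers 1 to 4 of db/db and 3 and 4 of db/+ come from the titles, while 1 and 2 of db/+ only name arrays. On the slide, replicates 1 to 4 of each strain lay in columns 1 to 4, so that same-numbered arrays shared a column. The correlation of deviations between same-numbered arrays was 0.036 for number 3 and 0.31 for number 4. Between db/db replicate 3 and db/+ replicate 4 it was -0.21, and between db/db replicate 4 and db/+ replicate 3 also -0.21. Named were the members, their passenger strands and probes, the 2 most similar tested miRNAs of each by Pearson's r, and called miRNAs of each list, up to 4. The members and lists were chosen with earlier results of these data known. Alternatives changed the scaling, the background correction, the filter, the test and the arrays used. Coordinates are those of the array files (mm9), and gene names and sequences are from RefSeq (GRCm38.p6).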

Additional observations from a re-analysis of the deposited data

How the results depend on the processing

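None of the 5 members passed under any setting run, except miR-23b with array weights (0.38, limma adjusted p = 0.0380), where 42 of the 127 tested miRNAs passed. The log2 fold change of miR-23a turned to 0.0051 with normexp, 0.014 with the raw median intensity and 0.032 with the authors' deposited score. That of miR-24 turned to 0.13 with normexp, 0.14 with the raw median, 0.089 with the score and 0.13 with array weights. That of miR-27b turned to -0.027 with the 75th percentile, -0.055 with quantile normalization and -0.15 without db/+ replicates 2 and 4, an alternative chosen after seeing the data. Leaving out each array in turn gave -0.17 to -0.015 for miR-23a, 0.26 to 0.40 for miR-23b, -0.44 to -0.26 for miR-27a, -0.00065 to 0.17 for miR-27b (below 0 without db/+ replicate 4) and -0.090 to 0.030 for miR-24 (above 0 without db/db replicate 1, at 0.0089, and without db/+ replicate 2). The difference in the miR-23 ratio was -0.43 to -0.34 with each array left out (adjusted exact permutation p 0.0286 to 0.0571, 0.0286 without db/+ replicate 3) and -0.42 to -0.34 under the other alternatives (adjusted p 0.0571 to 0.133). Before adjustment its p was 0.0286 with each array left out, the smallest that 35 arrangements allow. The adjusted p was lower without db/+ replicate 3 because the p of the miR-27 ratio also reached 0.0286 there. The 0.133 came without 2 db/+ arrays, where the p before adjustment, 0.0667, was the smallest that 15 arrangements allow. The difference in the miR-27 ratio was -0.59 to -0.30 with each array left out (adjusted exact permutation p 0.0286 to 0.114, 0.0286 without db/+ replicate 3) and -0.48 to -0.161 under the other alternatives (adjusted p 0.0571 to 0.333), with -0.26 from the raw median and -0.19 from the authors' deposited score. The cause was not tested.

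The 19 calls over all miRNAs became 0 with no scaling, 2 with normexp, 1 with the raw median, 3 with the authors' deposited score, 4 with no filter, 42 with array weights, 9 without db/+ replicates 1 and 4 (chosen after seeing the data), and 11 to 20 with each array left out (11 without db/db replicate 2 and 12 without db/db replicate 3). The 12 higher and 7 lower calls became 6 and 8 with the 75th percentile, 9 and 8 with quantile normalization and 10 and 11 with cyclic loess. The median of all tested miRNAs, 0.15, became 0.024, 0.023 and 0.030 under these 3 and -0.13 with normexp, and relative to 0.15 the members lay at -0.22 (miR-23a), 0.17 (miR-23b), -0.50 (miR-27a), -0.05 (miR-27b) and -0.17 (miR-24). With the replicate number as a block, 20 miRNAs passed, miR-23b was at 0.32 (limma adjusted p = 0.140), no member's call changed, and both ratios had an exact permutation p of 0.0833, the smallest that the blocked design allows. The numbers pair no animals. Scaling to the median of all miRNAs could not be run, since that median was below 0 on 3 arrays. With only the 17-base probe of each member, chosen after seeing the data, the ratio differences were -0.39 and -0.43. The exact permutation p was 0.0857 for both, before and after adjustment, and the strains overlapped in the miR-23 ratio.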

Other observations

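The longer probe of each member was brighter than the shorter, by a factor that differed between arrays of db/+ more than between arrays of db/db. For miR-27a the signal of the longer probe was 4.05 to 4.28 times that of the shorter in db/db livers, and 4.05, 4.70, 3.14 and 5.22 times in db/+ replicates 1 to 4. For miR-27b the range was 4.63 to 4.86 in db/db, against 4.54, 5.51 and 4.64 in db/+ replicates 1 to 3. No factor is given for db/+ replicate 4, where none of the 10 spots of the shorter miR-27b probe were well above background. For miR-24 it was 1.68 to 1.71 in db/db, against 1.65, 1.80, 1.52 and 1.84 in db/+. For miR-23b it was 3.44 to 3.64 in db/db, against 3.61, 4.17, 2.97 and 3.83 in db/+. The 2 highest factors of miR-27a, miR-24 and miR-23b were on db/+ replicates 2 and 4, the dimmest arrays. miR-23a was an exception, with 4.15 on db/+ replicate 4 but 3.75 on db/db replicate 4, above the 3.54 on db/+ replicate 2.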
